A study of Mus musculus with 8 samples.

Results

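Macrophages were a rare population of the digested mouse intervertebral disc: 60 of 13480 kept cells met a marker rule, 18 of 6999 at day 10 after birth (P10) and 42 of 6481 at 8 weeks. The rule took cells with at least 500 genes, at least 1000 unique molecular identifiers (UMIs, the counted transcript molecules) and at most 15% mitochondrial UMIs. It then asked for at least 10 UMIs summed over the 7 genes C1qa, C1qb, C1qc, Cd68, Csf1r, Adgre1 and Mrc1, with at least 3 of them detected. Cells with 10 or more UMIs of the cartilage genes Matn1, Matn3 and Cnmd, 30 or more of Car3, or 3 or more of the endothelial genes Pecam1 and Cdh5 were left out.

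All mice carried Tagln-CreERt2, a tamoxifen-inducible Cre driven by the promoter of Tagln (the actin-binding protein transgelin, made by contractile cells), together with R26tdTomato, a Cre-dependent red fluorescent reporter. Tamoxifen was given at P5 in both groups, and whole discs of the lumbar spine and the tail were taken at P10 or at 8 weeks, so no group lacked the transgenes or the drug. Muscle and vessels had been trimmed away and blood washed off before digestion, which bears on how many blood and perivascular cells could be caught. GEO lists 4 samples at each age, but the cells of an age carry 1 barcode suffix, so each age is 1 library, a difference of age cannot be told apart from one of library, and the ages were compared without a test. Levels below are UMIs of a gene per 1000000 UMIs of the summed cells (CPM). Brackets give exact 95% intervals, by the Poisson distribution for a level, by Clopper-Pearson for a share and by the binomial distribution given the summed count for a ratio; they cover counting error alone.

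Tissue macrophages are long-lived phagocytes that seed organs before and after birth and survive on signals through the receptor CSF1R. They clear dead cells and debris, degrade what they take up in lysosomes, secrete complement component C1q, and can show peptides on major histocompatibility complex (MHC) class II molecules to T cells. The inner disc is among the largest tissues without blood vessels, and its resident immune cells are few and are found mostly toward the outer annulus and the endplates. In many organs 2 broad kinds of resident macrophage are described: perivascular cells with the hyaluronan receptor LYVE1, and cells rich in MHC class II.

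The 18 P10 cells held 188815 UMIs in all and the 42 cells of 8 weeks 396542. Depth per cell ran from 3113 through a median of 8773 to 22697 UMIs at P10, and from 1392 through 9619.5 to 20908 at 8 weeks, shallower than the other kept cells, whose medians were 18313 and 14907. Mitochondrial shares were close, with medians of 2.49% and 2.77%. The share of macrophages among kept cells was 0.257% at P10 [0.152 to 0.406%] and 0.648% at 8 weeks [0.467 to 0.875%]. Digestion and washing set what was captured, so these shares do not give the composition of the disc. The libraries shared 10 kept barcodes, none of them a macrophage.

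Summed UMIs of the 7 genes ran from 13 through a median of 131 to 204 in the P10 macrophages and from 10 through 108.5 to 257 at 8 weeks, and 13 and 37 cells had 40 or more. Just inside, 3 cells at each age had 10 to 19. Just outside, 8 and 7 cells had 7 to 9, and 20 and 30 cells had 5 to 9. At a threshold of 5 UMIs in place of 10, 30 cells would be members at P10 and 45 at 8 weeks, so the P10 number rests on the threshold. Scattered UMIs of the 7 genes were common, since 615 cells at P10 and 1337 at 8 weeks had at least 1. The cartilage condition removed 2 cells at P10 and 1 at 8 weeks, and the Car3 and endothelial conditions removed 0.

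**Figure D1:**
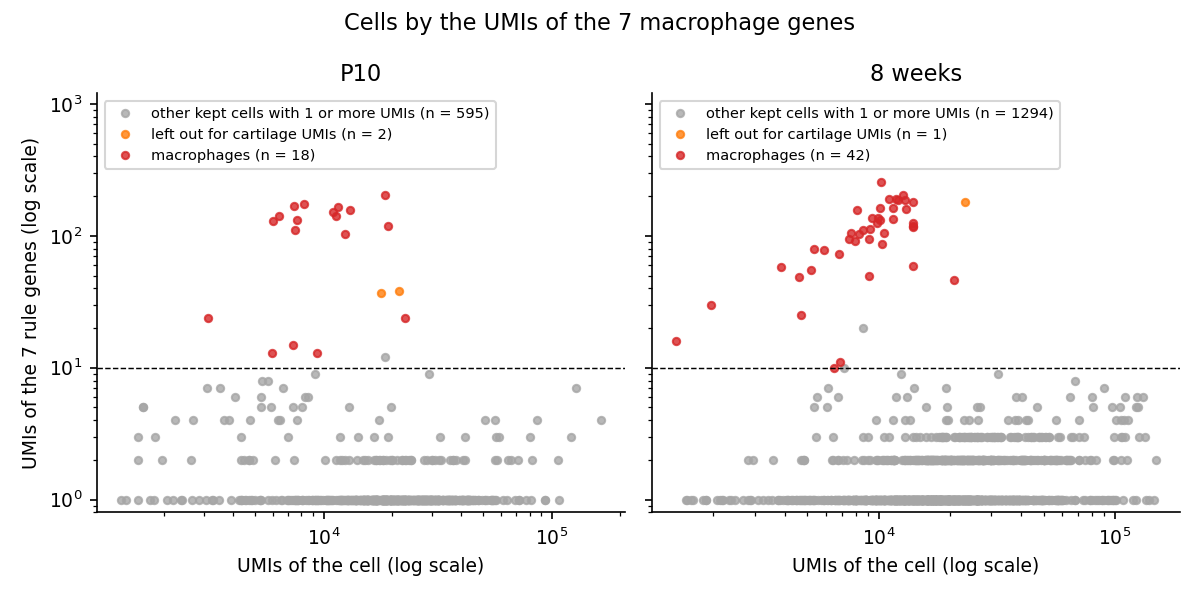
Summed UMIs of the 7 rule genes (log axis) against total UMIs of each kept cell that has any, at P10 and 8 weeks, with the macrophages marked. Of the macrophages, 13 of 18 and 37 of 42 lie at 40 or more UMIs; the few other cells at or above the line at 10 had cartilage UMIs or fewer than 3 of the genes.

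The markers that chose the cells behaved as a set, which is a description because they are the rule. C1qa, a chain of the complement starter C1q, stood at 2553 CPM at P10 and 3122 at 8 weeks, against 0.204 and 0.450 in all other kept cells. Csf1r, the receptor for the growth factors CSF1 and IL-34, stood at 1054 and 1026 CPM and was seen in 18 of 18 and 42 of 42 cells. Adgre1, which encodes the F4/80 antigen, had 323 and 353 CPM and was found in 14 and 40 cells. The mannose receptor gene Mrc1 had 816 and 688 CPM. Outside the rule, Spi1, the transcription factor PU.1 that myeloid cells depend on, was found in every one of the 60 cells, at 583 and 613 CPM against 2.57 and 1.63 in the other cells.

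A few cells passed the rule without the usual profile. At P10, 1 cell had only 5 C1q UMIs but 57 UMIs of osteoclast genes, 47 of them from Acp5 (tartrate-resistant acid phosphatase) and 9 from Atp6v0d2, a proton pump subunit of bone-resorbing cells. It was also the deepest, with 12% of all P10 macrophage UMIs. Another P10 cell with 0 C1q UMIs carried 122 neutrophil UMIs, 58 of them S100a9. A further 2 P10 cells had 0 C1q UMIs with 38 and 7 UMIs of Plac8, a gene of circulating monocytes, as did 1 cell of 8 weeks with 23 Plac8 and 7 Chil3 UMIs. Another 8-week cell had 3 C1q UMIs, 122 of Cd74 and 8 of Ccr2, the receptor that draws monocytes from blood. Finally, 1 P10 cell with 68 C1q UMIs held 1344 UMIs of fibroblast and annulus genes, 7.07% of its UMIs coming from disc cell markers. No doublet caller was run, so whether this last droplet held more than 1 cell was not tested. Leaving out cells with fewer than 10 C1q UMIs or over 2% disc cell marker UMIs removes these 7. It leaves 13 P10 and 40 8-week cells, a choice made after their values were seen. Values without the 7 are given for some genes only, and a gene printed without one may differ too.

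Against all other kept cells, the genes that stood out most beyond the rule were textbook macrophage genes. They are a description, as the cells were picked on counts from the same libraries. Pf4, a chemokine of platelets and resident macrophages, had 4549 CPM at P10 [4250 to 4864] and 4809 at 8 weeks [4596 to 5030], and under 0.5 CPM in the other cells. Per cell it ran from 0 through a median of 4142 to 13440 CPM at P10 and from 0 through 4331 to 26558 at 8 weeks, with 14 of 18 and 40 of 42 cells positive. The lipid-sensing receptor gene Trem2 stood at 529.6 and 719 CPM, and the complement C3a receptor gene C3ar1 at 466 and 419. Ms4a7, Ms4a6d, Aif1, Clec4n and Cd163 were among the 12 leading genes at P10, and Ms4a7, Aif1, Gpr34, P2ry12, Ccl8 and Ctss among those at 8 weeks. P2ry12 (101 and 88.3 CPM) and Gpr34 (42.4 and 217 CPM), receptors for nucleotides and lysophospholipids, are best known from brain microglia.

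Markers of other disc cells were low in most macrophages. The 14 cartilage genes summed to 1107 and 734 CPM, against 91275 and 38542 in the other cells, and endothelial genes to 37.1 and 12.6. The cartilage and endothelial sums were partly fixed in advance. The rule left out cells by Matn1, Matn3, Cnmd, Pecam1 and Cdh5, which are on these lists. The neutrophil list summed to 757 CPM at P10 and 27.7 at 8 weeks, and the fibroblast and annulus list to 8236 and 333. Both P10 sums came almost wholly from single cells: the fibroblast list reached 76915 CPM in 1 cell, with a per-cell median of 470.

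The largest difference between the ages was in MHC class II. Summed over H2-Aa, H2-Ab1, H2-Eb1 and Cd74, the P10 macrophages held 3 UMIs (15.9 CPM [3.28 to 46.4]) in 2 cells, and the 8-week macrophages 2533 UMIs (6388 CPM [6141 to 6641]) in 20 cells, a log2 ratio of 8.65 [7.10 to 10.9]. The P10 level lay below that of the other P10 cells (70.7 CPM), and the 8-week level far above that of the other 8-week cells (46.8 CPM). Among those other cells, 10 at P10 and 12 at 8 weeks held 50 or more class II UMIs. Of 14 measured class II genes, 9 had at least 30 UMIs over both ages. At 8 weeks 7 of these were at least 2-fold higher and 1 at least 2-fold lower, where over all 3199 genes tested 13.8% were at least 2-fold higher and 4.1% at least 2-fold lower. The list median was 3.97 on the log2 scale, against 0.18 for all genes. All the higher genes but Ctss reached 30 UMIs through the 8-week cells alone, and the median is the ratio of one of them, H2-DMb1. The count and the median are therefore descriptions.

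The peptide-binding chains H2-Aa and H2-Eb1 were at 0 in all 18 P10 cells. At 8 weeks H2-Aa had 581 UMIs (1465 CPM [1348 to 1589]) in 15 cells, at least 92.2-fold more, and H2-Eb1 had 321 UMIs in 13 cells, at least 50.9-fold more; both bounds set P10 at 3 counts over the group. Cd74, the invariant chain that guides class II molecules to the endosome, went from 2 UMIs to 1252, a log2 ratio of 8.22 [6.36 to 11.3]. Its per-cell level at 8 weeks ran from 0 through a median of 0 to 19778.5 CPM, so most cells had none and a minority had much. H2-Ab1 followed, with 1 and 379 UMIs (log2 ratio 7.50 [5.01 to 12.8]). These 4 genes, like H2-DMb1 and H2-DMa below, passed the minimum of 30 UMIs through the 8-week cells alone.

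The machinery around the class II molecules differed less. H2-DMb1, a chain of the H2-M complex that loads peptides, had 1 and 33 UMIs (log2 ratio 3.97 [1.40 to 9.32]), and its partner H2-DMa had 7 and 38 (1.37 [0.19 to 2.78]). Ctss, the protease cathepsin S that trims the invariant chain, was present at both ages: 551 CPM in 16 of 18 P10 cells and 1712 CPM in all 42 cells of 8 weeks, a log2 ratio of 1.64 [1.34 to 1.95]. Cd83, which stabilises class II on the surface of activated cells, went the other way, from 1356 to 577.5 CPM (-1.23 [-1.49 to -0.97]). Its log2 ratio was -1.57 without the 7 atypical cells. The costimulator gene Cd86 had 164 and 194 CPM. Of 9 tested MHC class I genes, which nearly all cells use, H2-M3 was at least 2-fold higher (31.8 and 65.6 CPM) and H2-Q4 at least 2-fold lower (111 and 55.5 CPM). Of the most abundant, B2m had 932 and 1503 CPM, H2-D1 980 and 1707, and H2-K1 736 and 968.

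Class II genes share a promoter module of X and Y boxes that recruits the coactivator CIITA. Of the class II genes higher at 8 weeks, H2-Aa, H2-Eb1 and H2-DMb1 hold letters of this module in the 250 bases before their starts, which are shown for that reason from RefSeq (GRCm38.p6, chromosome 17, where they lie in the H2 complex), 5′ to 3′ on the strand of each gene. H2-Aa is at chr17:34287824-34288073 (minus strand), H2-Eb1 at chr17:34305617-34305866 (plus strand) and H2-DMb1 at chr17:34152941-34153190 (plus strand). Capitals mark matches, on either strand, to the Y box letters GATTGG, the first letters of the X box, CTAGNAAC (N is any base), and the cyclic AMP response element TGACGTCA. The motifs do not overlap here, and their letters were settled after these sequences had been read.
H2-Aa: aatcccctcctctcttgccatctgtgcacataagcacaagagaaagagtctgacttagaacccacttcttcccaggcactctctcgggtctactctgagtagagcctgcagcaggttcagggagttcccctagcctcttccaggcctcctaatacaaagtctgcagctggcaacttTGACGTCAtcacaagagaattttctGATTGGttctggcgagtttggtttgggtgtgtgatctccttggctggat
H2-Eb1: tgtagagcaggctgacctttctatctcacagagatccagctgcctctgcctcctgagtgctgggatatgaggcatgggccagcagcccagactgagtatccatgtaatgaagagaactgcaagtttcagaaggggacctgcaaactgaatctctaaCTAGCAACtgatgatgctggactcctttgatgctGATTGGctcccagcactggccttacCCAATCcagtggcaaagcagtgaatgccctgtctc
H2-DMb1: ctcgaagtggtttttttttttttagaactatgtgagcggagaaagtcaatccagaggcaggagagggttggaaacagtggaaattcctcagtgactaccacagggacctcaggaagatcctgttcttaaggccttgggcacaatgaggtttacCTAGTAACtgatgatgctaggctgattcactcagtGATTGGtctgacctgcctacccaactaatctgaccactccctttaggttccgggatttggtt
The Y box letters start 49 bases before the start of H2-Aa, 60 and 35 (the latter on the other strand) before that of H2-Eb1, and 62 before that of H2-DMb1. The X box letters start 94 bases before H2-Eb1 and 97 before H2-DMb1, and TGACGTCA starts 74 before H2-Aa. Of 32851 promoter windows of this length, 14.6% hold the Y box letters, 1.55% hold TGACGTCA and 3.06% hold the X box letters. Ctss and H2-DMa, also higher at 8 weeks, are not shown: the window of Ctss holds none of these letters, and of the windows of H2-DMa 1 holds none and the other holds the Y box letters 199 bases before the start. H2-DMb2 and H2-Oa, not among the genes higher at 8 weeks, hold the Y box letters too, 91 and 44 bases before their starts. The letters therefore do not set apart the genes that differed. A match describes letters and is not evidence of binding; 7 of the 9 class II genes looked up were in the table, and binding was not measured.

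Class II was not raised evenly but split the 8-week macrophages. To compare cells of unequal depth, each was thinned to 2000 UMIs, which left out 2 shallow cells of 8 weeks. At a threshold of 5 class II UMIs, 14 of 40 cells were positive at 8 weeks (35% [20.6 to 51.7%]) and 0 of 18 at P10, a count that allows up to 16.7%. Unthinned, the counts were 16 of 42 and 0 of 18. In other kept cells the same threshold was passed by 0.14% at P10 and 0.26% at 8 weeks. Without thinning, 22 of the 42 cells had 0 class II UMIs, 4 had 1 to 4 and 16 had 5 or more, 15 of them at least 17. Only 3 thinned cells lay within 2 UMIs of the threshold.

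The LYVE1 set (Lyve1, Folr2, Cd163, Timd4, F13a1 and Cbr2) marked other cells. At 2 thinned UMIs, 10 of 18 P10 macrophages (55.6% [30.8 to 78.5%]) and 16 of 40 at 8 weeks (40.0% [24.9 to 56.7%]) passed, with 13 of 18 and 26 of 42 unthinned. This threshold cuts through a range, as 13 and 30 cells lay within 2 UMIs of it, and 0.58% and 8.45% of other cells passed it too (F13a1 alone had 206 CPM in the other cells of 8 weeks). At 8 weeks 14 cells passed for class II alone, 16 for the LYVE1 set alone, 10 for neither and 0 for both. At full depth 1 of the 16 cells with at least 5 class II UMIs had as many as 2 UMIs of the LYVE1 set, and 24 of 42 cells had 5 or more of it.

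**Figure D2:**
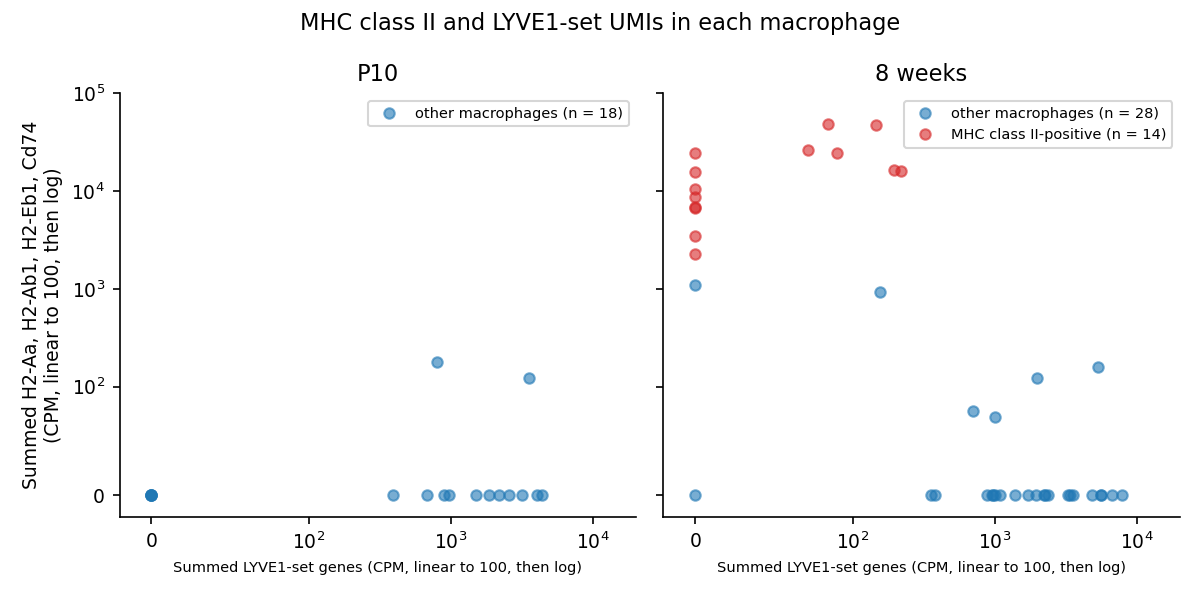
Summed CPM of the 4 class II genes against summed CPM of the 6 LYVE1-set genes in each macrophage at full depth (axes linear to 100, then log), P10 and 8 weeks. At P10, 2 cells have any class II UMI; at 8 weeks the 14 class II-positive cells have at most 2 UMIs of the LYVE1 set, and most of the other 28 cells have 0 class II UMIs.

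The 14 class II-positive cells of 8 weeks were then set beside the other 26, a comparison added after the data were seen. Because the 2 sets were cut from the same cells, class II genes are no finding here and the rest is a description. Median depth was 9462 UMIs in the class II-positive cells, 9667.5 in the LYVE1-type and 11001 in the cells passing neither threshold. The mitochondrial median was 3.84% in the class II-positive cells, 2.02% in the LYVE1-type and 2.25% in the cells passing neither threshold. Whether these differences bear on the genes below was not tested. Of 2286 genes with at least 30 UMIs, 13.5% were at least 2-fold higher in the class II-positive cells and 17.5% at least 2-fold lower, with a median of -0.13 on the log2 scale.

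Apoe, the lipid carrier apolipoprotein E, had 20026 CPM in the class II-positive cells and 1438 in the rest (log2 ratio 3.80 [3.64 to 3.96]), where 12 of 26 cells had any. Gdf15, a stress-induced hormone of the TGF-beta superfamily, had 2661 and 22.8 CPM (6.87 [5.73 to 8.32]). Both were also well expressed at P10, without class II, at 9946 and 482 CPM. Spic, the transcription factor of heme-recycling macrophages, had 391 and 22.8 CPM, and the adhesion gene Vcam1, a marker of the same cells in spleen and marrow, 836 and 53.3. The iron exporter gene Slc40a1 had 299 and 38.0 CPM, and transferrin (Trf) 629 and 68.5. Axl, a receptor that binds dying cells, had 407 and 34.2 CPM; Mpeg1, a pore-forming protein of phagosomes, had 1250 and 110 and was found in 14 of 14 cells. Among regulators, Runx3 had 276 and 22.8 CPM and Irf8 575 and 126.

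In the lists of genes, lysosome and cathepsin genes ran higher in the class II-positive cells, with 12 of 25 at least 2-fold higher and 0 lower (median 0.98), among them Ctsh at 552 and 60.9 CPM. Lipid handling genes had 9 of 15 higher and 2 lower (median 1.96). Inflammatory cytokine genes had 8 of 13 higher and 0 lower (median 1.60): the log2 ratio was 3.33 for the anti-inflammatory Il10, 2.43 for the inflammasome sensor Nlrp3, 2.09 for Tnf and 1.60 for Il1b. Most 8-week Il1b UMIs lay in a single cell, as given below, so its ratio rests on that cell. The growth factor genes Pdgfa (606 and 91.3 CPM) and Pdgfb (522 and 95.1 CPM) were higher as well. Of 16 tested identity receptor and surface genes 5 were at least 2-fold higher in the class II-positive cells and 1 lower (median 0.80). The higher ones were Cd14, Fcgr2b, Cd48, Cd52 (690.3 and 122 CPM) and Clec4n (360.5 and 60.9 CPM), and the lower one was Cd36 (299 and 1336 CPM). The rule genes C1qa (2961 and 3200 CPM), Csf1r (867 and 1103) and Adgre1 (407 and 327) differed by less than 2-fold, as did Trem2 (660 and 742).

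The other 26 cells carried a profile of their own. Aqp1, a water channel, had 816 UMIs in 21 of these 26 cells and 0 in the class II-positive cells, at least 135-fold more. Tppp3, a tubulin-binding protein, had 252 UMIs against 0 (at least 41.7-fold), and Fxyd2, a regulator of the sodium pump, 2390 against 30.7 CPM (log2 ratio -6.28 [-8.16 to -4.92]). The S100 family genes S100a4 (5940 against 376 CPM) and S100a6 (7290 against 545), and the LIM protein gene Crip1 (9136 against 552), followed. Alox5 and Alox5ap, which start leukotriene synthesis, stood at 445 against 15.3 CPM and 837 against 61.4. The tetraspanin gene Cd9 had 1800 against 176 CPM and Pf4 6335 against 1197. Of the monocyte-attracting chemokines, Ccl2 had 628 against 153 CPM and Ccl7 255 against 53.7. Folr2, Lyve1 and Cd163 were at 0 in the class II-positive cells, but they belong to the set that named the LYVE1-type cells; of 12 tested genes on the wider LYVE1 list 8 were lower in the class II-positive cells and 1, Selenop (4794 against 1408 CPM), was higher.

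**Figure D3:**
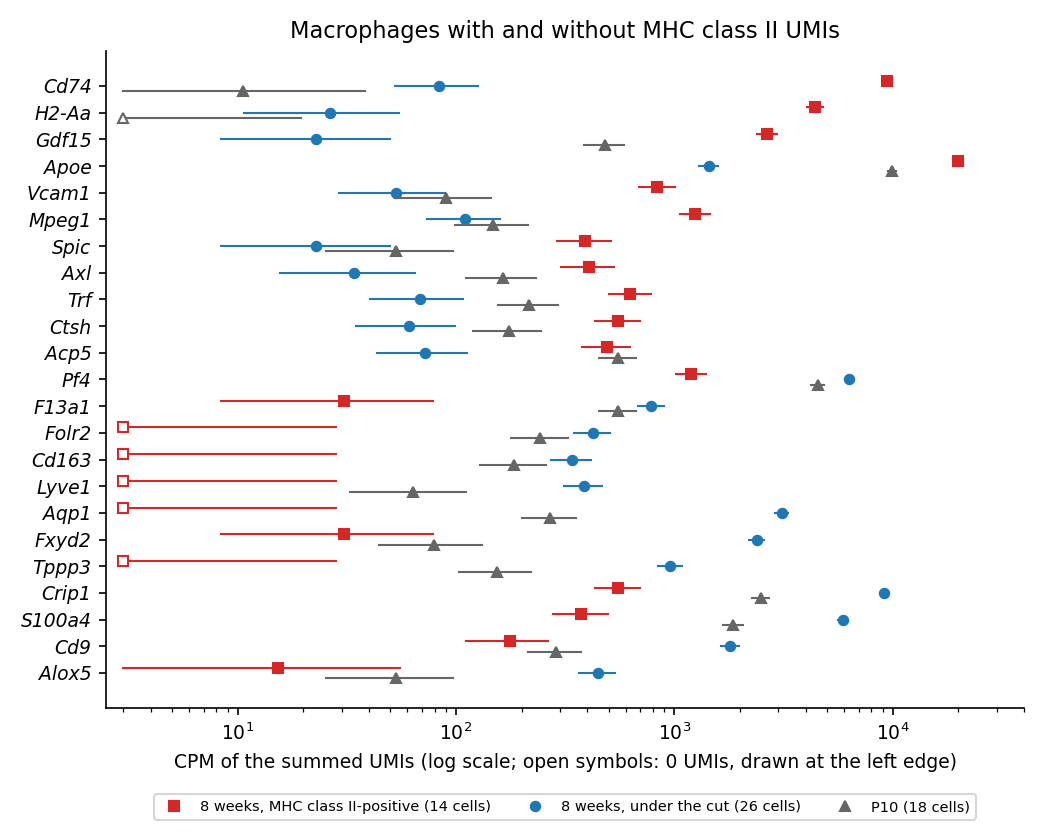
Levels (CPM of summed UMIs, log axis, bars for exact 95% Poisson intervals) of 23 genes in 14 class II-positive and 26 other macrophages of 8 weeks and in the 18 of P10; open symbols mark 0 UMIs. Gdf15 and Apoe are higher at P10 and in the class II-positive cells than in the other 8-week cells, and Aqp1, Fxyd2 and Tppp3 are highest in the other 8-week cells.

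Over all 3199 genes with at least 30 UMIs, 440 (13.8%) were at least 2-fold higher at 8 weeks and 131 (4.1%) at least 2-fold lower. Scaled to the median gene, which stood 0.18 higher at 8 weeks on the log2 scale, the counts were 324 and 214. Among 1471 genes whose macrophage level was at least 2-fold that of the other cells, 16.7% were higher and 5.57% lower.

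After class II, the naming rule gave 8 further genes higher at 8 weeks. Of these, Fxyd2, Aqp1, Alox5 and Tppp3 were also higher in the 8-week cells under the class II threshold than in the class II-positive cells. Fxyd2 had 15 UMIs at P10 (79.4 CPM, in 8 cells) and 642 at 8 weeks (1619 CPM, in 30 cells), a log2 ratio of 4.35 [3.62 to 5.19]. Its per-cell median was 0 at P10 and 758 CPM at 8 weeks, with maxima of 366 and 8948. Aqp1 went from 270 CPM in 5 cells to 2083 CPM in 23 cells (2.95 [2.54 to 3.38]). Alox5 went from 53.0 to 303 CPM (2.51 [1.59 to 3.61]) and Tppp3 from 154 to 648 (2.08 [1.52 to 2.68]). Without the class II-positive cells the log2 ratios were 4.92 for Fxyd2 and 3.52 for Aqp1. That rise was fixed in advance, as those cells held 4 UMIs of Fxyd2 and 0 of Aqp1. Without the 7 atypical cells the log2 ratios were 3.80 for Fxyd2 and 2.39 for Aqp1. In the other kept cells Fxyd2 and Tppp3 were also higher at 8 weeks, at 135 and 393 CPM and at 50.1 and 128 CPM.

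Of the other 4 genes by that rule, Runx3, Nr4a3 and Gclc had 4 or fewer UMIs at P10. Runx3, a transcription factor of lymphoid and myeloid cells that was higher in the class II-positive cells, had 1 UMI at P10 and 42 at 8 weeks, and the orphan nuclear receptor gene Nr4a3 had 0 and 34 (at least 5.40-fold). Gclc, the rate-limiting enzyme of glutathione synthesis, had 4 and 71 UMIs (log2 ratio 3.08 [1.66 to 4.99]), spread over 3 and 27 cells. The unnamed transcript AY036118 had 31 and 251 UMIs and was higher at 8 weeks in the other cells too (52.2 and 292 CPM).

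The genes lower at 8 weeks by the same rule came, with 1 exception, from 2 P10 cells. Col3a1, Fstl1, Fbn1, Mfap5, Pi16, Igfbp6, Ly6a and Dcn are fibroblast genes, and 95% or more of their P10 UMIs lay in the single cell with 1344 fibroblast UMIs. G0s2, S100a9, Retnlg and Stfa1 are neutrophil genes, and 100% of their P10 UMIs lay in the single cell with 122 neutrophil UMIs. The exception was Fcrls, an Fc receptor-like gene of mouse microglia and resident macrophages. It had 86 UMIs in 13 of 18 P10 cells (455.5 CPM [364 to 562]) and 7 UMIs in 5 of 42 cells at 8 weeks (17.7 CPM [7.10 to 36.4]), a log2 ratio of -4.69 [-6.05 to -3.58]. Per cell it ran from 0 through a median of 389 to 1862 CPM at P10 and from 0 through 0 to 251 at 8 weeks. The largest P10 share of 1 cell was 17.4%, and without the 7 atypical cells the log2 ratio was -5.08.

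**Figure D4:**
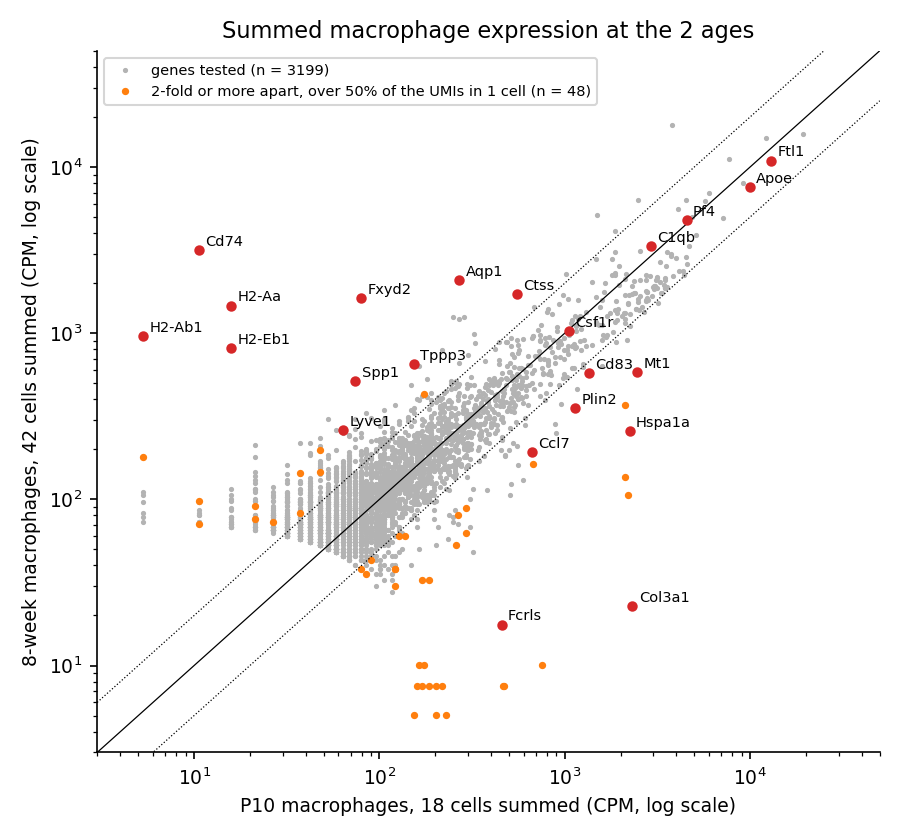
Summed level of each of 3199 tested genes in P10 against 8-week macrophages (CPM, log axes; genes at 0 drawn at 3 counts), with equality as a solid line, 2-fold as dotted lines, and in orange 48 genes past 2-fold that draw over 50% of their UMIs from 1 cell. Class II genes, Fxyd2 and Aqp1 lie above the lines and Fcrls below; Col3a1, labelled, also comes from 1 cell.

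Identity and regulation genes differed between the 2 ages about as often as all tested genes. Counts in this and the following lists are read against all tested genes, of which 13.8% were at least 2-fold higher and 4.1% lower. Of 19 tested receptor and surface genes, 2 were at least 2-fold higher at 8 weeks and 1 lower (median 0.10, against 0.18 over all genes). The higher ones were the scavenger receptor gene Cd36 (323 and 994 CPM, log2 ratio 1.62 [1.23 to 2.03]) and the integrin gene Itgb2 (58.3 and 199 CPM); the lower one was the scavenger receptor gene Msr1 (111 and 47.9 CPM). The Fc receptor chain Fcer1g (2134 and 2280 CPM) and its relative Tyrobp (1885 and 1569 CPM) were found in every cell. Of 17 transcription factors, Cebpa and Spic were at least 2-fold higher and 0 lower (median 0.38). Zeb2, a transcription factor of tissue macrophages, had 678 and 598 CPM.

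The LYVE1 list was mixed, with 2 of 15 tested genes higher, 3 lower and a median of 0.04. Lyve1 itself had 12 UMIs at P10 (63.6 CPM, 7 cells) and 104 at 8 weeks (262 CPM, 15 cells), a log2 ratio of 2.04 [1.18 to 3.04], and Gas6, a bridge between dying cells and AXL-family receptors, had 244 and 517 CPM. Igfbp4, which binds insulin-like growth factors, went from 503 to 106 CPM (-2.25 [-2.81 to -1.71]), the carbonyl reductase gene Cbr2 from 265 to 70.6 and the lectin gene Clec10a from 95.3 to 45.4. Cd163 (185 and 227 CPM), Folr2 (244 and 282 CPM) and F13a1 (551 and 567 CPM) overlapped in their intervals. Timd4 did not reach the minimum.

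Uptake and lipid genes leaned higher at 8 weeks. Of 15 lipid handling genes 6 were at least 2-fold higher and 1 lower (median 0.72), against 13.8% and 4.1% of all tested genes. Fabp4 and Gpnmb, counted as higher, stood at -1.30 and -0.50 without the class II-positive cells, from fewer than 30 UMIs. Spp1, which encodes osteopontin, had 14 and 205 UMIs (log2 ratio 2.80 [2.02 to 3.70]), though the other cells of 8 weeks held 16035 CPM of it against 517 in the macrophages, so free RNA cannot be told apart from expression. Cd9 had 286 and 1258 CPM (2.14 [1.73 to 2.57]), again with a high level in other cells. Pltp, a phospholipid transfer protein, had 270 and 658 CPM. Plin2, which coats lipid droplets, was the lower one, at 1139 and 353 CPM (-1.69 [-2.01 to -1.38]). Of 12 scavenger and dead-cell receptors 5 were higher and 1 lower, and of 11 iron and heme genes Slc11a1 (21.2 and 146 CPM) and Slc48a1 (53.0 and 184 CPM), which export iron and heme from the phagolysosome, were higher. The iron and heme list had 0 lower and a median of -0.23. The ferritin gene Ftl1 had 12976 and 10919 CPM. Lysosome genes hardly differed, with 1 of 25 higher, 0 lower and a median of 0.17: Ctsb had 3718 and 2905 CPM, Lgmn 1589 and 1584, and Psap 1467 and 2776.

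Chemokine genes leaned lower at 8 weeks, with 1 of 13 at least 2-fold higher, 5 lower and a median of -0.92. Over all tested genes 13.8% were at least 2-fold higher and 4.1% lower. Ccl3 went from 900 to 252 CPM (log2 ratio -1.84 [-2.21 to -1.47]), Ccl4 from 477 to 182, Ccl7 from 662 to 192 and Ccl6 from 164 to 50.4. Without the 7 atypical cells Ccl6 was at 1.38 on the log2 scale, from 2 and 16 UMIs. Cxcl10, an interferon-induced chemokine, went from 31 UMIs in 5 cells to 4 UMIs in 2 cells. Ccl8 was the higher one, with 37.1 and 141 CPM. Cxcl2, a neutrophil attractant, was abundant at both ages, at 3522 and 2532 CPM. Of 7 tested interferon response genes 3 were lower, namely Cxcl10, Irf1 (207 and 68.1 CPM) and Ifitm3 (514 and 124 CPM), and 0 higher.

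Cytokine and growth factor genes were uneven among cells. Of 17 tested cytokine and inflammasome genes 2 were at least 2-fold higher at 8 weeks and 3 lower (median -0.51). Il1b had 33 UMIs in 3 P10 cells and 170 in 11 cells of 8 weeks (log2 ratio 1.29 [0.75 to 1.88]), with 73% of the P10 and 51% of the 8-week UMIs in 1 cell each; without the 7 atypical cells the ratio was 5.38. Osm, oncostatin M, went from 307 to 68.1 CPM (-2.17 [-2.89 to -1.49]), but was at -0.30 without those cells. Of 10 growth factor genes 4 were at least 2-fold higher and 1 lower (median 0.65). Vegfa had 1 and 44 UMIs, the latter in 7 cells. Pdgfb had 47.7 and 234.5 CPM and Pdgfa 58.3 and 260, log2 ratios of 2.30 and 2.16 that were 0.98 and 0.63 without the class II-positive cells. Igf1 had 265 and 197 CPM, and Tgfb1 360 and 439.

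Dissociation is known to switch on early response genes, and these went both ways; its part was not tested. Of 19 tested immediate early and heat shock genes 3 were higher at 8 weeks and 5 lower (median -0.42). Fos had 270 and 1221 CPM (2.18 [1.76 to 2.62]), Zfp36 302 and 741, and Egr1 154 and 356. Hspa1a, an inducible heat shock protein, had 2240 and 257 CPM (-3.12 [-3.45 to -2.81]) and Jun 884.5 and 285. Hspa1a and Hspa1b are near-identical copies whose reads may be split. For Hspa1a the ratio was -1.13 without the 7 atypical cells, and for Hspa1b it turned from -2.18 to 0.49. Of 14 cell cycle genes 0 were higher and 3 lower (Stmn1, Birc5 and Cdk1), and Mki67 had 138 and 139 CPM. By 2 or more thinned UMIs of 6 cycle genes, 3 of 18 and 6 of 40 cells passed. Unthinned, 8 of 18 (44.4%) and 10 of 42 (23.8%) did, and 17 and 38 thinned cells lay within 2 UMIs of the threshold, so no order of the ages is read from these counts. Respiratory chain genes showed 0 of 25 past 2-fold in either direction (median -0.03).

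**Figure D5:**
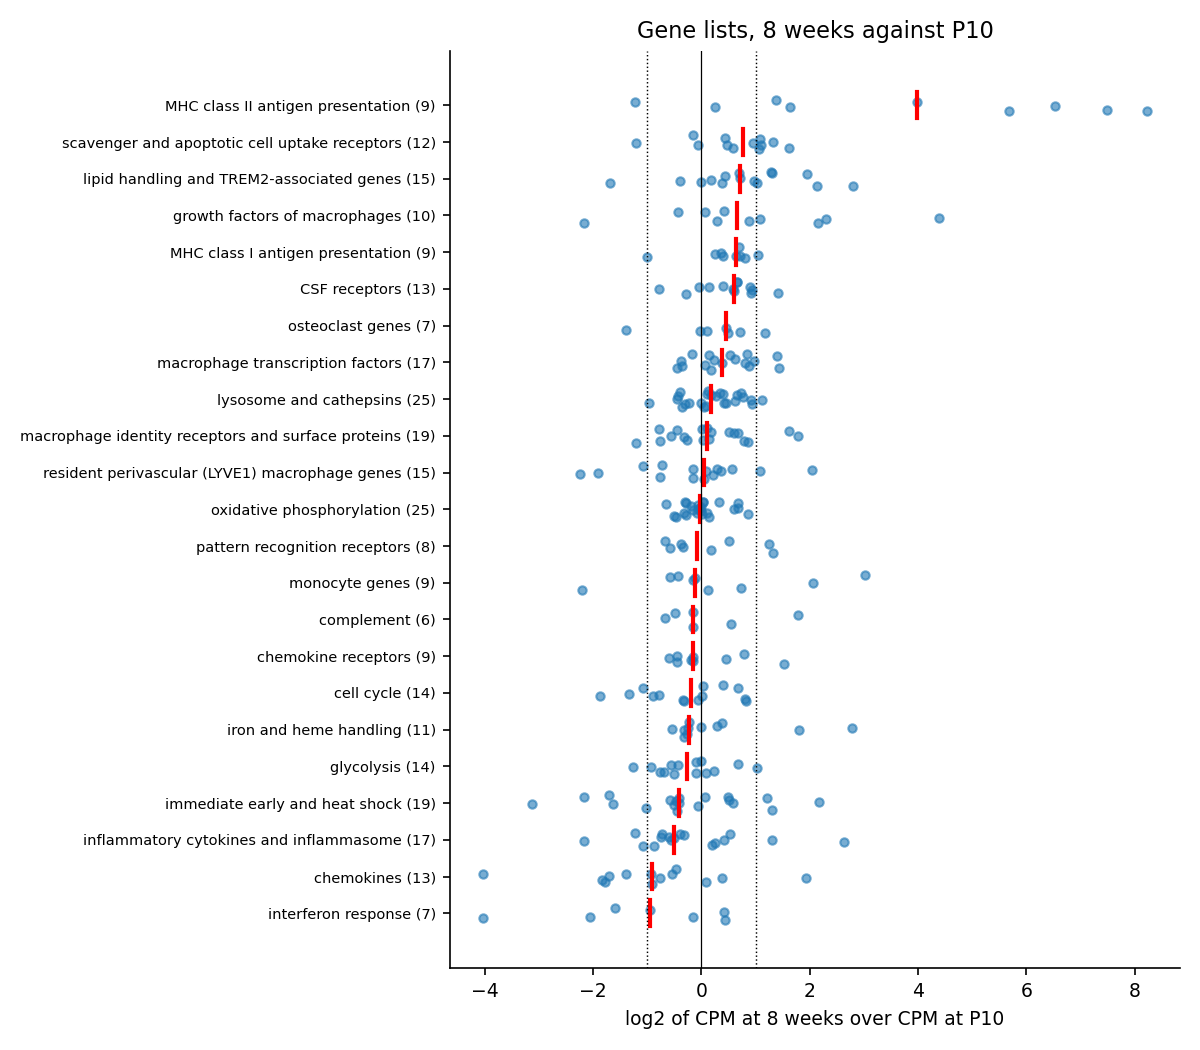
Log2 ratios (8 weeks over P10) of the tested genes of each macrophage list with 5 or more of them, as points (against 0 UMIs, the bound), with the list median as a red bar and 2-fold as dotted lines; the number tested is in parentheses. The class II list has the highest median at 3.97, and the chemokine and interferon lists have the lowest.

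For some genes that differed between the 2 sets of 8-week cells, the ratio between the ages depended on the class II-positive cells. Apoe had 9946 CPM at P10 and 7540 at 8 weeks (log2 ratio -0.40), but -2.80 when the class II-positive cells were left out. Per cell its median was 4767 CPM at P10 and 446 at 8 weeks, with 17 of 18 and 27 of 42 cells positive. Gdf15 turned from 0.89 to -4.42 in the same way, and Spic from 1.44 to -1.23.

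Ligands of the receptor CSF1R were measured mostly in other cells. Csf1, the main CSF1R ligand, had 98.9 CPM at P10 and 136 at 8 weeks in cells with at least 3 Pecam1 and Cdh5 UMIs, and 59.6 and 54.1 in cells with at least 30 Car3 UMIs, the latter a gene of the nucleus pulposus. Cells with the cartilage genes had 12.5 and 26.2, and macrophages themselves 15.9 [3.28 to 46.4] and 15.1 [5.55 to 32.9], from 3 and 6 UMIs. Il34, the other ligand, had 11.4 and 16.6 CPM in the endothelial-gated cells and 0 UMIs in macrophages, which at P10 allows up to 19.5 CPM. Csf2, which encodes GM-CSF, had 0.683 CPM at P10 and 17.8 at 8 weeks in the Car3-gated cells, and 0 and 20.9 CPM in cells that passed none of these gates. Macrophages had 0 UMIs of it and carried its receptor genes Csf2ra (132 and 146 CPM) and Csf2rb (159 and 237 CPM). In class II-positive cells Csf2rb stood at 499 CPM, against 107 in the other 8-week cells. Of 13 tested cytokine receptors, Csf2rb2 (26.5 and 70.6 CPM) alone was at least 2-fold higher at 8 weeks and 0 were lower.

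Few UMIs of the added sequences were found in macrophages. The tdTomato sequence itself (TDT) had 0 UMIs at P10, which allows up to 19.5 CPM where the other kept cells had 1.54, and 1 UMI at 8 weeks, so it does not show whether macrophages carried the reporter. WPRE4 is a further deposited sequence, and whether it belongs to the reporter transcript here is not given in the sources used here. It had 13 UMIs at P10 (68.9 CPM [36.7 to 118]) and 19 at 8 weeks (47.9 [28.8 to 74.8]). Neutrophils, a blood cell set chosen by 8 other genes, had 49.0 and 68.9 CPM, and all other kept cells 175 and 1096. At most 7 WPRE4 UMIs were seen in a macrophage, and 0 of 60 reached 10, while 295 and 1432 other cells did.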

How the data were processed

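Whole discs were profiled by droplet-based single-cell RNA sequencing. The deposited matrices hold raw UMI counts per gene and barcode, which the authors made with Cell Ranger 3.1.0, per the file headers; per the submitters' processing notes the build was mm10 (GRCm38), and Seurat 3 is listed, for what step is not given in the sources used here. Each age has 1 matrix of 31053 genes and 1 of exogenous sequences, joined by barcode. Barcode and feature files are text. After the filters in the report, 6999 of 7690 barcodes were kept at P10 and 6481 of 7597 at 8 weeks.

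UMIs were summed over the macrophages of an age and divided by their total. Genes with at least 30 UMIs over both sums were compared. With 1 library per age there is no test, and past the threshold means a ratio of at least 2-fold. A fold against 0 UMIs was computed against 3 counts over the group. Thinning drew each cell to 2000 UMIs with a seed of 7. No doublet caller was run, and beyond the marker conditions no mixed cells were removed. The genes named are the 12 highest and 12 lowest by the interval bound nearer to 1 among genes at least 2-fold above the other cells, the 4 highest and 4 lowest without that condition, the 12 leading genes against other cells at each age, and of each of 38 lists the members with most UMIs or the largest ratios. In the comparison of class II-positive cells, genes were named after their values were seen. Members, rule and lists were chosen with earlier results of these data known. Alternatives changed the marker threshold, cell filters, scaling, gene minimum and thinning; those on C1q UMIs, on class II-positive cells, on genes resting on 1 cell and on mean CPM per cell were chosen after seeing the data. The contrast was run on simulated Poisson sums with no variation among cells, so that run says nothing on genes resting on 1 cell. Promoter sequences are from RefSeq (GRCm38.p6). Python 3.11.15, NumPy 2.4.6, SciPy 1.17.1, pandas 2.3.3, Matplotlib 3.10.9 and, for TMM factors, edgeR 4.0.16 in R 4.3.3 were used.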

Additional observations from a re-analysis of the deposited data

Results flagged for a closer look

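For 7 genes of the lists, macrophages moved one way between the ages by at least 2-fold and the other kept cells moved the opposite way by at least 2-fold; with 1 library per age these differences were not tested. Genes with over 50% of their UMIs in 1 cell were not considered. Clec10a had a log2 ratio of -1.07 in macrophages and 1.39 in the other cells. H2-DMa had 1.37 and -1.27, and -0.72 in macrophages without the class II-positive cells. Acp5 had -1.40 and 1.53, with 45% of its P10 macrophage UMIs in the osteoclast-type cell. The chemokine gene Ccl7 had -1.79 and 2.86. The transcription factor gene Irf1 had -1.60 and 2.35. Btg2, an early response gene, had -1.03 and 1.98, but 0.28 in macrophages at a marker threshold of 20 and 0.059 with at least 10 C1q UMIs. Hspa1b had -2.18 and 1.56, with 48% of its P10 macrophage UMIs in 1 cell; in macrophages it was at 0.70 with at least 10 C1q UMIs and at 0.49 without the 7 atypical cells.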

How the results depend on the processing

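No paired analysis was possible because the 4 samples of an age cannot be told apart in its matrix, and for the same reason no replicate could be left out. Of 56 alternative values for the counts of cells and genes, 45 lay within 1.5 times the reported one and 11 did not. At a marker threshold of 5 UMIs, 30 P10 cells passed. Thinned to 2000 UMIs, 593 genes could be compared, 67 at least 2-fold higher and 43 lower. With TMM factors 208 genes were lower, and scaled to the median gene 214. A minimum of 10 UMIs gave 1392 higher and 406 lower, one of 100 UMIs gave 81 and 39, and genes at least 2-fold above the other cells gave 245 and 82 (of 6661, 910 and 1471 genes compared). The split in percent was 13.8 and 4.10 as reported, 11.3 and 7.25 after thinning, 10.1 and 6.5 with TMM, 20.9 and 6.10 at a minimum of 10 UMIs and 8.90 and 4.29 at 100.

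Of 93 genes at least 2-fold apart that were followed through the alternatives, 5 changed sign under at least 1 that left them 30 UMIs, and 12 others changed sign only where fewer UMIs were left. Among the latter, without the class II-positive cells, were Spic (-1.23), H2-DMa (-0.72) and Fabp4 (-1.30), and Gpnmb stood at -0.50 there too; Runx3 (-0.41), H2-M3 (-0.15) and Csf2rb2 (-0.41) changed sign after thinning, and Slc16a3 (0.22) at a marker threshold of 20. Gpnmb was at -0.21 and Il1b at -0.60 at a marker threshold of 5. Btg2 was at 0.28 at a threshold of 20 and 0.059 with at least 10 C1q UMIs, and Hspa1b at 0.70 with that condition and 0.49 with the limit of 2% disc cell markers added. Meg3 was at 1.58 under that limit alone and 1.92 with both. The median of the class II list was -0.36 (3 genes) without the class II-positive cells, whose removal takes those genes away by construction. Leaving out genes with over 50% of their UMIs in 1 cell gave 13.7% higher and 3.00% lower. For the other sign changes the cause was not tested. Depth limits what 18 cells can show: a gene with 0 UMIs at P10 may still have up to 19.5 CPM.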

Other observations

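The remaining lists are read against the 13.8% of all tested genes at least 2-fold higher at 8 weeks and the 4.1% lower. Of 6 tested complement genes, Itgb2 was at least 2-fold higher at 8 weeks and 0 were lower. Of 8 pattern recognition genes 2 were higher (Ly86 and Tlr7) and 0 lower. Of 9 chemokine receptor genes Cxcr4 was higher (106 and 305 CPM, log2 ratio 1.53), but at 0.14 without the class II-positive cells. Of 14 glycolysis genes Pfkp was higher (53.0 and 108 CPM) and Slc16a3 lower (84.7 and 35.3 CPM, but at 0.22 on the log2 scale at a marker threshold of 20). Of 7 osteoclast genes Tnfrsf11a, the receptor for RANK ligand, was higher (42.4 and 95.8 CPM) and Acp5 lower. Of 9 monocyte genes Vcan and Lyz1 were higher and Plac8 lower, with 94.9% of the 8-week Vcan UMIs and 69.1% of the P10 Plac8 UMIs in 1 cell each.

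Without the 7 atypical cells, Mt1, a metal-binding metallothionein, had 3200 CPM in the 13 P10 cells and 600.2 in the 40 of 8 weeks (log2 ratio -2.41 [-2.66 to -2.18]); in the other kept cells it had 399.7 and 689 CPM. The adhesion gene Icam1 had 764 and 154 CPM (-2.31). Ednrb, an endothelin receptor gene, had a log2 ratio of -3.02, with 50% of its P10 UMIs in 1 cell. These genes were named after that choice of cells.

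At 2 thinned UMIs of the monocyte set, 2 of 18 P10 cells and 2 of 40 at 8 weeks passed. Of the dendritic cell set 0 of 18 and 0 of 40 passed, counts that allow shares of up to 16.7% and 7.5%.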
